A study of Homo sapiens with 6 samples.

Results

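Complex I (NADH:ubiquinone oxidoreductase) is the entry point of electrons from NADH into the mitochondrial respiratory chain. Its peripheral arm holds an N module, where NADH is oxidized, and a Q module, where ubiquinone is reduced, and its membrane arm pumps protons. Electrons pass between the modules along iron-sulfur clusters, which are carried by a small group of core subunits, and most other nuclear-encoded subunits are accessory proteins that hold the complex together. The transcripts of 36 nuclear-encoded NDUF genes are described here, chosen by a fixed list of symbols out of 60609 genes in each table, and all 36 were found. The list holds 5 iron-sulfur subunits (*NDUFS1*, *NDUFS7*, *NDUFS8*, *NDUFV1* and *NDUFV2*), and the remaining 31 are accessory or core subunits of the N module, the Q module, the proximal and distal membrane arm, and the acyl carrier protein *NDUFAB1*. By structural module, 10 listed genes belong to the N module, 5 to the Q module, 9 to the proximal and 11 to the distal part of the membrane arm.

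The samples were 6 stranded, poly(A)-selected RNA-seq libraries of OCI-AML5, an established human acute myeloid leukemia (AML) line. All cells were kept in medium with 10% heat-inactivated serum and 10 ng/mL of GM-CSF, the growth factor the line depends on, and were exposed for 24 hours to 1 µM S767 (3 libraries) or to DMSO, the solvent control (3 libraries). The study characterizes S767, and the comparison asks which transcripts differ in cells given the compound. The labels do not say whether libraries of a group came from separate cultures, so p-values measure the spread between these libraries, which may be partly technical, and a single line limits the results to that line. The gene counts summed to between 149994700 and 258029564 fragments a library. The blood cell marker *PTPRC* was at 65.7 to 83.9 TPM (a transcript level corrected for length and scaled to one total in every library) and the myeloid marker *CD33* at 88.6 to 106 TPM. The myeloid markers *MPO*, *CSF2RB* and *CSF2RA* were at 12.6 to 26.6, 11.5 to 13.8 and 2.90 to 3.89 TPM, whereas *ANPEP* was practically absent (0.02 to 0.09 TPM). Of the markers of other cell types given here, *CD3E* was listed at 0 in every library, and *EPCAM* and *COL1A1* did not exceed 0.35 TPM.

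Complex I subunit transcripts were abundant, and none of them changed past the adjusted limit with S767. In DMSO the median of the 36 was 183 TPM, against 3.76 TPM over all genes tested, and 28 of the 36 exceeded 100 TPM, as did 6.96% of all genes tested. The iron-sulfur subunits had a median of 191 TPM and the remaining 31 a median of 177 TPM. Summed over the list, the level was 8136, 7647 and 7560 TPM in DMSO replicates 1, 2 and 3, and 7867, 7753 and 7909 TPM in S767 replicates 1, 2 and 3. The groups overlapped, with DMSO replicate 1 the highest and DMSO replicate 3 the lowest of the 6 libraries. The means were 7781 ± 310 TPM in DMSO and 7843 ± 81.0 TPM in S767 (SD, n = 3 each). In TPM, 30 of the 36 were higher in DMSO replicate 1 than in the other DMSO libraries. In bulk libraries such as these, fewer cells with a transcript and less of it per cell cannot be told apart.
The most abundant member was *NDUFA13* (ENSG00000186010.19; chromosome 19, 19515736 to 19529054, plus strand; GRCh38, GENCODE 29), a membrane-arm subunit also known as GRIM-19. It was at 764, 721 and 732 TPM in DMSO and at 762, 759 and 797 TPM in S767. The top DMSO library lay just above 2 of the 3 S767 libraries, and the other DMSO libraries lay below all of them. The least abundant was *NDUFV3* (ENSG00000160194.18; chromosome 21, 42879644 to 42913304, plus strand), an accessory N-module subunit made in a long and a short isoform. Its level was 25.8, 22.9 and 24.5 TPM in DMSO and 26.8, 24.0 and 24.6 TPM in S767, with overlapping groups. The mean DMSO levels of these subunits of 1 complex differed 30.3-fold per transcript length. *NDUFB9*, *NDUFS5* and *NDUFA11* followed *NDUFA13* in level, and the lowest member still exceeded 74.9% of all genes tested. The RSEM length behind the *NDUFV3* values, which weights its isoforms, ran from 2658 to 3051 bases over the libraries.

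**Figure D1:**
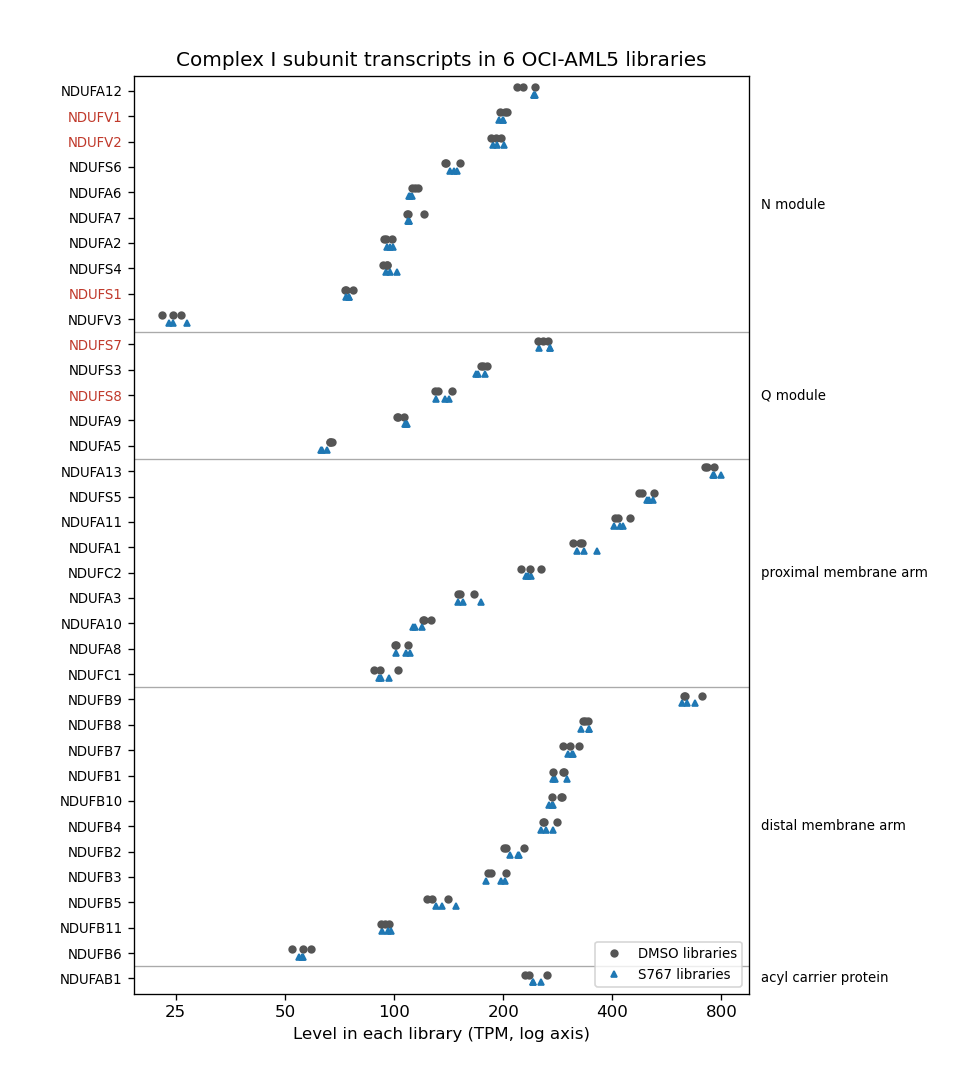
Level of each of the 36 subunit transcripts in each library (TPM, logarithmic axis), grouped by structural module and sorted by DMSO mean within a module; grey circles are the 3 DMSO libraries, blue triangles the 3 S767 libraries, and red names the iron-sulfur subunits. Levels run from about 25 TPM (*NDUFV3*) to over 700 TPM (*NDUFA13*), and circles and triangles overlap for 33 of the 36 genes.

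The iron-sulfur subunits are given one by one, by module. *NDUFV1* (ENSG00000167792.13; chromosome 11, 67605653 to 67612554, plus strand) binds FMN and NADH at the tip of the N module. It was at 203, 205 and 196 TPM in DMSO and at 200, 200 and 194 TPM in S767. *NDUFV2* (ENSG00000178127.13; chromosome 18, 9102630 to 9134345, plus strand), which carries a cluster beside the flavin, was at 197, 191 and 186 TPM in DMSO and at 201, 187 and 192 TPM in S767. *NDUFS1* (ENSG00000023228.14; chromosome 2, 206114817 to 206159603, minus strand), the largest subunit of the complex and the carrier of several clusters, was at 73.2, 73.7 and 76.9 TPM in DMSO and at 75.2, 73.8 and 75.2 TPM in S767. For each of these N-module genes the groups overlapped.

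In the Q module, *NDUFS7* (ENSG00000115286.20; chromosome 19, 1383527 to 1395589, plus strand) holds the last cluster before ubiquinone. Its level was 266, 258 and 249 TPM in DMSO and 251, 270 and 269 TPM in S767. Of the S767 libraries, 1 lay inside the DMSO range and 2 above it. *NDUFS8* (ENSG00000110717.13; chromosome 11, 68030617 to 68036644, plus strand), which holds a pair of clusters on the same path, was at 144, 132 and 130 TPM in DMSO and at 139, 142 and 130 TPM in S767. Its highest and its lowest level were both in DMSO. Summed over the 5 genes the level was 883, 859 and 837 TPM in DMSO and 866, 873 and 861 TPM in S767, with the S767 libraries inside the DMSO range.

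Tested on the gene counts with edgeR's quasi-likelihood test, the 5 iron-sulfur subunits had log2 fold changes (S767 against DMSO) between -0.12 and 0.041, and none had an unadjusted P under 0.05. *NDUFS7* had 0.041 ± 0.049 (SE), *NDUFS8* 0.020 ± 0.055, *NDUFS1* 0.014 ± 0.036 and *NDUFV1* 0.011 ± 0.046. *NDUFV2* had -0.12 ± 0.27, an error several times that of the others. From the RSEM expected counts, which estimate how many fragments each gene produced, the value for *NDUFV2* was 0.028 ± 0.037. On these the 5 genes ran from 0.0041 (*NDUFV1*) to 0.035 (*NDUFS7*), and the widest 95% intervals reached from -0.10 to 0.15.

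The iron-sulfur subunits and the other subunits had similar median changes. The iron-sulfur median log2 fold change was 0.014, against 0.020 for the other 31, a difference of -0.0052 in the counts, and in RSEM counts the medians were 0.028 and 0.015, a difference of 0.012. The same difference taken within libraries of one replicate number was 0.046 for replicate 1, -0.021 for replicate 2 and -0.052 for replicate 3 in the counts. Its sign thus changed with the replicate, and its spread over the pairs (SD 0.050) exceeded its size. Genes of one complex are not replicates of each other, so this difference is given without a test.

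Over the whole list, 1 of 36 members had an unadjusted P under 0.05, against 3.53% of the 20725 genes tested, and none passed an adjusted p of 0.05, against 0.00483% (1 gene). The lowest adjusted p of any member was 1.00, by edgeR with Benjamini-Hochberg adjustment over all genes tested, and limma-voom and DESeq2 found no member with an unadjusted P under 0.05, against 3.42% and 3.07% of all genes. No member passed a P of 0.05 with a log2 fold change beyond 0.4 in either direction, against 1.23% of all genes. The study used these limits to choose up-regulated genes for its pathway analysis. In the counts 23 members were above 0 and 13 below, and the median was 0.018, against -0.00024 over all genes tested, of which 49.8% were above 0. In RSEM counts 24 were above 0, the median was 0.018, and none of the 36 had an unadjusted P under 0.05, against 3.70% of 18851 genes tested.

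The intervals around these values were narrow. In RSEM counts the 95% intervals of all 36 members lay between -0.16 and 0.22 on the log2 scale (0.893-fold to 1.16-fold), so each excluded a change of 0.4, as did the intervals of 59.2% of all genes tested. The same held for all 40 nuclear subunits of complexes II to V, all 19 complex I assembly factors and all 78 mitochondrial ribosomal proteins. It held for 3 of the 7 mitochondrially encoded ND subunits. In the counts 34 of 36 intervals lay inside that limit, against 53.9% of all genes, and the exceptions were *NDUFV2* and *NDUFA13*. The median range among the 3 DMSO libraries was 0.12 and among the 3 S767 libraries 0.083 in log2 RSEM counts scaled by library size, and the median difference between group means was 0.030. Over all genes tested the same 3 medians were 0.20, 0.20 and 0.063. For 2 of 36 members the group difference was larger than the range in either group, against 4.91% of all genes.

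**Figure D2:**
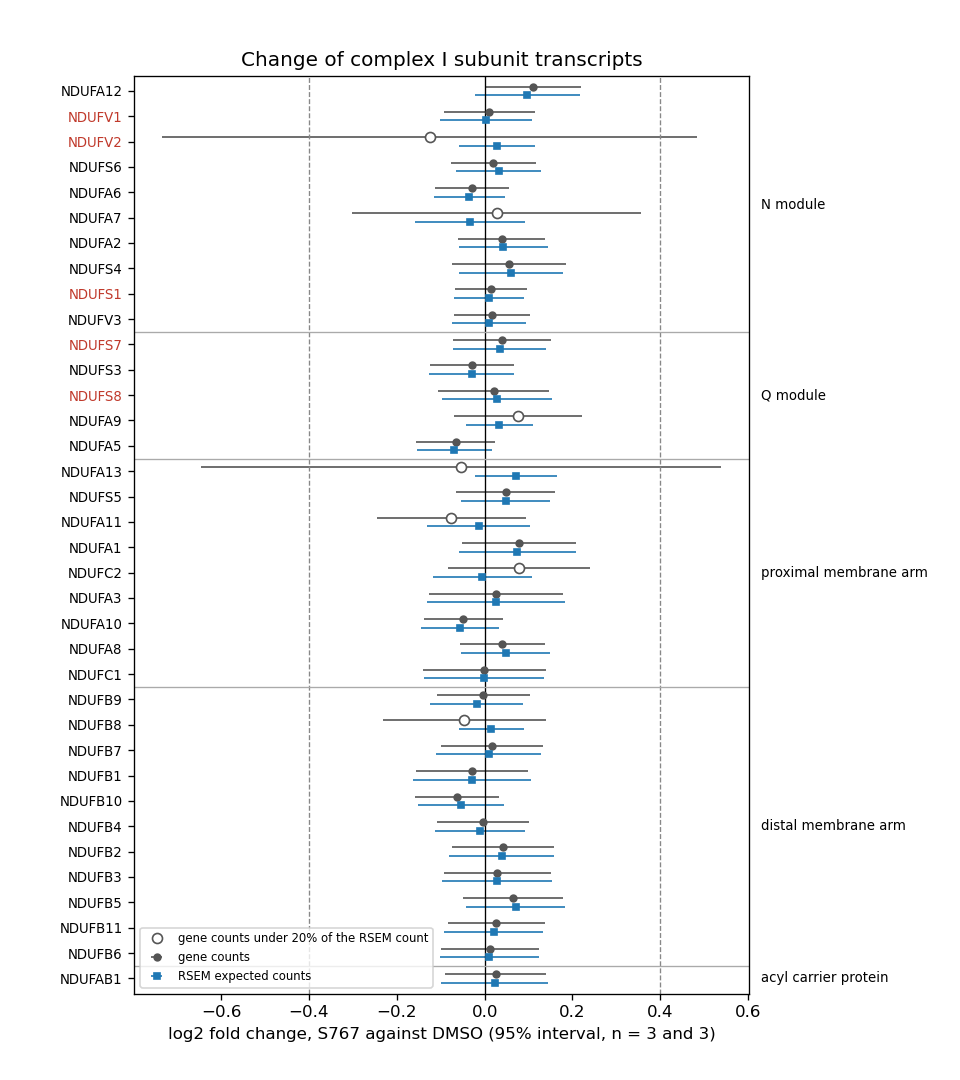
Log2 fold change of each subunit, S767 against DMSO, with its 95% interval (n = 3 libraries a group, edgeR without a block), from gene counts (grey circles) and RSEM expected counts (blue squares); open circles mark genes whose gene count was under 20% of the RSEM count, red names the iron-sulfur subunits and dashed lines a change of 0.4. All RSEM intervals lie inside the dashed lines, and among the counts those of *NDUFV2* and *NDUFA13* cross them.

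*NDUFA12* (ENSG00000184752.13; chromosome 12, 94897055 to 95003770, minus strand), an accessory subunit placed late in assembly of the N module, was the one member with an unadjusted P under 0.05. Its normalized count was 61.6, 60.0 and 56.1 CPM (counts scaled by library size) in DMSO and 62.2, 66.4 and 63.2 CPM in S767. All S767 libraries lay above all DMSO libraries, the nearest by less than 1 CPM. In TPM, however, the groups overlapped, at 244, 227 and 218 TPM in DMSO and 243, 244 and 245 TPM in S767. The log2 fold change was 0.11 ± 0.048 (1.08-fold), with an adjusted p of 1.00 by edgeR and of 0.0777 when replicate entered as a block. RSEM counts gave 0.097 ± 0.052, with an unadjusted P above 0.05 and an adjusted p of 0.206 with the block.

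In the N module, 8 of 10 genes were above 0 in the counts. The largest sizes were those of *NDUFV2* and *NDUFA12*, above, and of *NDUFS4*, an accessory subunit whose loss causes Leigh syndrome, at 0.055 ± 0.057. In the Q module, 3 of 5 were above 0. *NDUFA9*, which binds a nucleotide near the ubiquinone site, had 0.076 ± 0.064, *NDUFA5*, a small accessory subunit, had -0.066 ± 0.039, and *NDUFS7* had 0.041. The gene count of *NDUFA9* was 13.4% of its RSEM count, and in RSEM counts its value was 0.034 ± 0.033. *NDUFA5* was at 66.6, 67.4 and 66.6 TPM in DMSO and at 62.8, 63.4 and 65.3 TPM in S767, so its groups did not overlap. *NDUFA9* was at 106, 103 and 102 TPM in DMSO and at 108, 109 and 107 TPM in S767, likewise without overlap.

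In the proximal membrane arm, 5 of 9 genes were above 0. The largest were *NDUFA1*, a single-span subunit encoded on the X chromosome (0.079 ± 0.057), *NDUFC2*, which sits beside the mitochondrially encoded ND2 (0.078 ± 0.071), and *NDUFA11*, a membrane-arm subunit (-0.076 ± 0.074). The gene counts of *NDUFC2* and *NDUFA11* were 9.59% and 10.2% of their RSEM counts, and in RSEM counts their values were -0.0049 and -0.014, so that of *NDUFC2* changed direction. In RSEM counts the largest of this arm were *NDUFA1* (0.074 ± 0.058), *NDUFA13* (0.072 ± 0.040) and *NDUFA10* (-0.055 ± 0.039). In the distal membrane arm, 6 of 11 were above 0, with *NDUFB5* at 0.065 ± 0.050, *NDUFB10* at -0.063 ± 0.042 and *NDUFB8* at -0.046 ± 0.081. The gene count of *NDUFB8* was 4.43% of its RSEM count, and in RSEM counts its value was 0.015. There the largest of this arm were *NDUFB5* (0.070 ± 0.049), *NDUFB10* (-0.053 ± 0.042) and *NDUFB2* (0.039 ± 0.052). *NDUFAB1*, the acyl carrier protein that also serves mitochondrial fatty acid and lipoic acid synthesis, had 0.026 ± 0.050. None of these had an unadjusted P under 0.05 in edgeR without the block. In CPM the groups did not overlap for 3 members (*NDUFA9* and *NDUFA12* higher, *NDUFA5* lower), a background of 9.21% of all genes, and in TPM for 3 (*NDUFA9* higher, *NDUFA5* and *NDUFA10* lower), a background of 8.20%.

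The ratios of S767 to DMSO moved together over the subunits from replicate to replicate. Measured from each gene's DMSO mean, the median of the 36 was 0.054, 0.0029 and -0.056 in DMSO replicates 1, 2 and 3 (log2, RSEM counts). In S767 replicates 1, 2 and 3 it was -0.016, 0.026 and 0.029. The DMSO libraries thus fell and the S767 libraries rose in order of number, with the wider spread in DMSO. Between S767 and DMSO libraries of replicate 1, 33 of 36 members were lower in S767 (RSEM counts), with a median log2 ratio of -0.071. Between libraries of replicate 3, 33 of 36 were higher, with a median of 0.089, and between those of replicate 2, 26 of 36 were higher, with a median of 0.029. Over all genes tested, 51.9%, 50.0% and 50.7% were higher in S767 in replicates 1, 2 and 3, with medians of 0.0047, 0.00020 and 0.0019. The iron-sulfur subunits had medians of -0.033, 0.017 and 0.043. By RSEM counts, 2 members (*NDUFA9* and *NDUFS4*) were higher in S767 in all 3 pairs and 3 (*NDUFA5*, *NDUFA6* and *NDUFA10*) were lower in all 3, whereas 20.5% and 18.7% of all genes were.

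The same order of replicates was seen in 3 other lists of nuclear genes for mitochondrial proteins. The 40 nuclear subunits of complexes II to V had median log2 ratios of -0.056, 0.031 and 0.077 in RSEM counts, the 78 mitochondrial ribosomal proteins -0.069, 0.014 and 0.041, and the 19 complex I assembly factors -0.043, 0.0094 and 0.028. The 7 mitochondrially encoded ND subunits did not follow it, with medians of 0.018, 0.11 and 0.11, above 0 in every replicate. What the libraries of one number share is not stated in the labels. A level raised or lowered equally in both libraries of a number cancels in such a ratio. The cause of the order of the ratios was not tested. *MPO* was at 26.6, 17.1 and 13.4 TPM in DMSO replicates 1, 2 and 3 and at 24.9, 16.2 and 12.6 TPM in S767. Its level thus differed with the number in both groups, but S767 was the lower in every pair, so its ratio kept its direction.

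**Figure D3:**
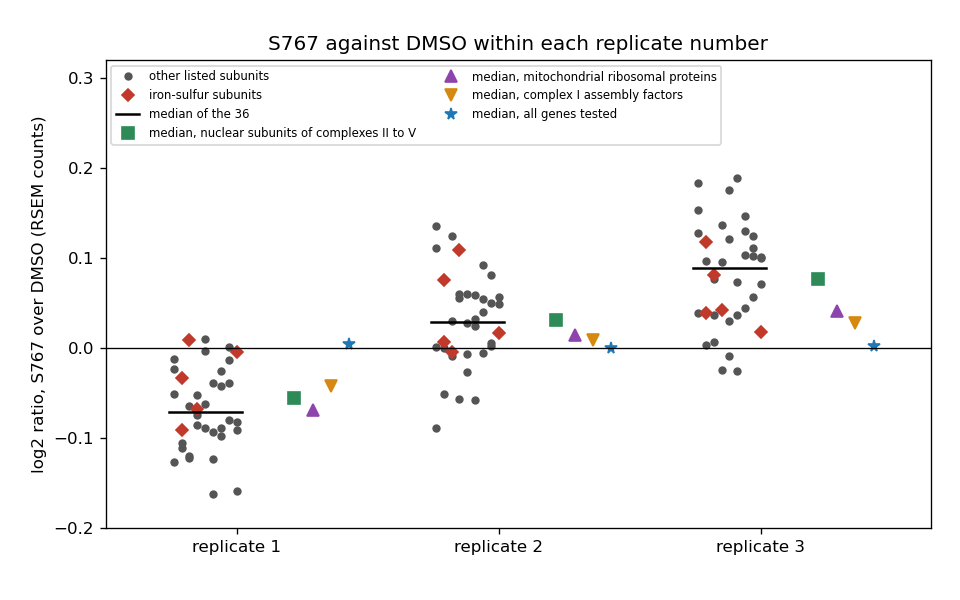
Log2 ratio of S767 over DMSO within libraries of one replicate number (RSEM counts scaled by library size), for each of the 31 other subunits (grey circles) and the 5 iron-sulfur subunits (red diamonds), with the median of the 36 as a line; coloured symbols at the right of each number are medians of other gene lists. The medians of the 36 are -0.071, 0.029 and 0.089, and those of all genes lie between 0.00020 and 0.0047.

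Calls on single subunits depended on which replicates entered the fit. When replicate was added as a block, edgeR gave 4 of 36 members an unadjusted P under 0.05 (*NDUFA12*, *NDUFB10*, *NDUFA5* and *NDUFA1*), below the background of 16.8% of all genes, and none passed the adjusted limit, against 3.23%. With the block and without the replicate 1 libraries, 17 had an unadjusted P under 0.05, against 21.1% of all genes tested, and 8 passed an adjusted p of 0.05, against 9.86%. These 8 were *NDUFA12*, *NDUFA1*, *NDUFS5*, *NDUFB5*, *NDUFS7*, *NDUFAB1*, *NDUFB2* and *NDUFA3*, all higher in S767, by 0.079 to 0.16 on the log2 scale. Among them *NDUFS7* had 0.11 ± 0.025 (adjusted p = 0.00173) and *NDUFA12* 0.16 ± 0.028 (adjusted p = 2.75e-05). edgeR takes part of each gene's spread from other genes. With the block and 1 replicate left out, few libraries remain and that part is most of it. These errors and p-values thus measure little of a gene's own spread. Without replicate 2 no member passed either limit (8.94% and 0.113% of all genes did), and without replicate 3, 5 had an unadjusted P under 0.05 and none passed the adjusted limit (13.4% and 3.06% of all genes did).

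The 2 ways of counting disagreed for 7 subunits. The gene counts of *NDUFA13*, *NDUFV2*, *NDUFA7*, *NDUFB8*, *NDUFC2*, *NDUFA11* and *NDUFA9* were 0.741%, 1.40%, 3.85%, 4.43%, 9.59%, 10.2% and 13.4% of their RSEM expected counts, and those of the other 29 were 95.9 to 111%. These 7 were picked out after their values were seen. Among all genes with at least 1000 RSEM counts in every library, 3.69% (372 of 10072) were under 20%. For *NDUFV2* the counts were 227, 305 and 304 in DMSO and 293, 286 and 208 in S767, and for *NDUFA13* 349, 152 and 332 in DMSO and 404, 150 and 241 in S767. The counts of the 29 other members ran from 4386 to 57025 per library. *NDUFA7*, at 145 to 297 counts, had an interval from -0.30 to 0.36, narrower than those of *NDUFV2* (-0.73 to 0.48) and *NDUFA13* (-0.65 to 0.54). The log2 fold change of *NDUFA7* was 0.027 in the counts and -0.032 in RSEM counts, so it also changed direction.

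In GENCODE 29 the exons of each of the 7 are overlapped on the same strand by another annotated gene, over 28.4% of the exon bases of *NDUFV2* (AP005263.1), 21.0% of *NDUFA13* (AC011448.1 and YJEFN3) and 16.3% of *NDUFC2* (the NDUFC2-KCTD14 readthrough). The shares for *NDUFB8*, *NDUFA7*, *NDUFA9* and *NDUFA11* were 33.8%, 32.3%, 10.6% and 9.65%. Among the members counted in full, same-strand overlap was largest for *NDUFS3* (19.6%, with PTPMT1), *NDUFC1* (18.5%, with MGARP) and *NDUFV1* (8.36%), whose counts were at 99.9%, 106% and 100% of RSEM. The release behind the deposited counts is not known, and of the 60609 deposited identifiers 2107 are absent from GENCODE 29 and 41747 match its version, so the overlaps in the annotation used for counting may differ. The part of the overlaps in the low counts was not tested. Counting without regard to strand lowered other members. *NDUFS7* then kept 11.0% of its stranded count, and 49.1% of its exon bases are overlapped on the other strand (AC005329.1 and AC005329.3), while *NDUFA2*, *NDUFB2* and *NDUFB9* kept 38.2%, 48.0% and 63.8%.

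**Figure D4:**
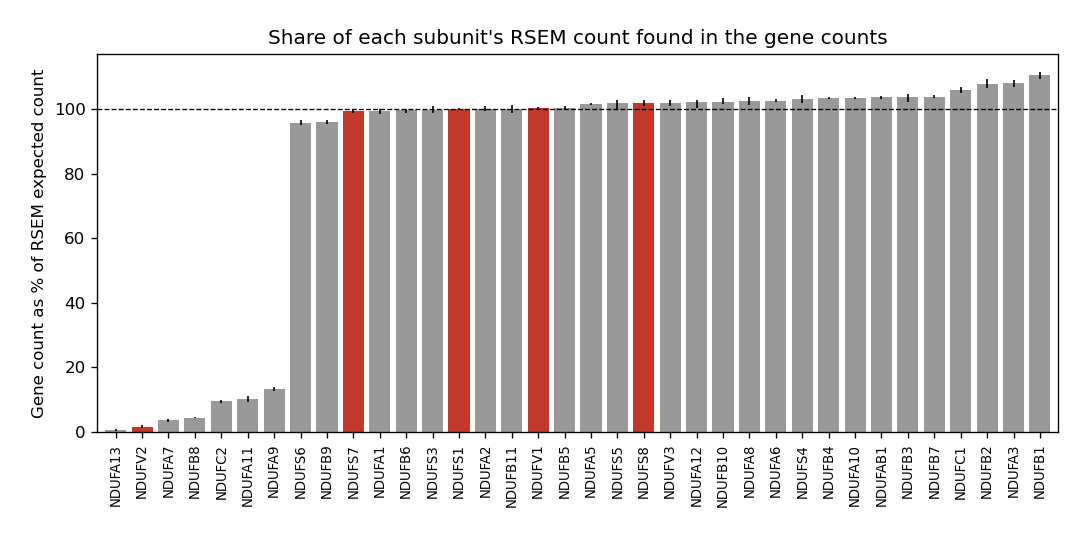
Gene count of each subunit as a percentage of its RSEM expected count, summed over the 6 libraries, with lines from the lowest to the highest library and iron-sulfur subunits in red; the dashed line is 100%. The 7 genes at the left are under 20%, and the other 29 are at 95.9% or more.

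Promoter sequences are shown for 4 members as a description, and a link between them and the replicate ratios was not tested. Each of the 4 holds a marked match, and members without one are not shown. RefSeq windows (GRCh38.p14) were found for 32 of the 36, and *NDUFS5*, *NDUFB5*, *NDUFC2* and *NDUFB9* had none. As RefSeq and GENCODE starts can differ, a window can lie inside the GENCODE gene or away from it. The *NDUFA5* window (chr7:123601652-123601901, minus strand) lies well before its GENCODE gene (123536997 to 123558255). Those of *NDUFS7*, whose sequence is shown, and of *NDUFV1*, *NDUFS3* and *NDUFV3*, among others, lie inside theirs. All were kept in the shares given below. The 250 bases before the first listed start were searched on both strands for the cores of NRF1 (GCANGCG) and ETS factors (CCGGAAG), known regulators of respiratory chain genes, of YY1 (ATGGCGG), and of the metal response element (TGCACNC or TGCGCNC), whose matches can overlap those of NRF1. Capitals mark the NRF1, ETS and YY1 matches in the sequences, 5′ to 3′ on each gene's strand, of *NDUFS1* (chr2:206159445-206159694, minus strand, an ETS core), *NDUFS7* (chr19:1383657-1383906, plus strand, overlapping NRF1 cores on both strands), *NDUFS8* (chr11:68030431-68030680, plus strand, a YY1 core) and *NDUFA12* (chr12:95003698-95003947, minus strand, an NRF1 core).
NDUFS1: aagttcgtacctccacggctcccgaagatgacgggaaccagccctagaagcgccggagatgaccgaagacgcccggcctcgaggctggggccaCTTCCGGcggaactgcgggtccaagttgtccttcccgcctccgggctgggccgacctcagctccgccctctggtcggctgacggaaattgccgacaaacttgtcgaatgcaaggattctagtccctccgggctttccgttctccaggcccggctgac
NDUFS7: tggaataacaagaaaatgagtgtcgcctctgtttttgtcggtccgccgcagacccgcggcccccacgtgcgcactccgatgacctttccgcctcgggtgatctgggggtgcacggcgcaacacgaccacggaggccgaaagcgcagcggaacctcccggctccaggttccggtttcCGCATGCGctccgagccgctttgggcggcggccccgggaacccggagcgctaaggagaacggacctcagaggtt
NDUFS8: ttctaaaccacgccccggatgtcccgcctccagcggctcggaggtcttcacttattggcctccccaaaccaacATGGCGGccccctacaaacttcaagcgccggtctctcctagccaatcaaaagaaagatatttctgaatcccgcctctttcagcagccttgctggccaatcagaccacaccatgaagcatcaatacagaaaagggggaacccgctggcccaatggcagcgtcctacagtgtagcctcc
NDUFA12: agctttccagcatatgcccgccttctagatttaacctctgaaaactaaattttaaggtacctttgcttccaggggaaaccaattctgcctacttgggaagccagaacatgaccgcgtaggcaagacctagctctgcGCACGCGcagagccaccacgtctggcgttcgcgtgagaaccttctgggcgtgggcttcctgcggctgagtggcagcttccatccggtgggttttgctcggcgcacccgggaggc

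The NRF1 core was in 11 of 32 members' windows (34.4%) and in 17.6% of 27305 promoters of the same length, and of the 5 iron-sulfur windows that of *NDUFS7* held it. The ETS core was in 5 (15.6%, against 8.82%), the YY1 core in 3 (9.38%, against 2.83%) and the metal response core in 19 (59.4%, against 24.7%). The windows of *NDUFV1* and *NDUFV2* held none of the NRF1, ETS and YY1 cores. The metal response core was in 3 of the 5 iron-sulfur windows, *NDUFS7*, *NDUFV1* and *NDUFV2*, and in 16 of the 27 others (59.3%). The median GC content of the members' windows was 61.2%, against 58.0% over all promoters. A match of these letters is not evidence of binding, and members with and without a given core were not compared for their response.

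Other genes of the complex were set beside the nuclear subunits. Of the 19 assembly factors, which build the complex and do not remain in it, none had an unadjusted P under 0.05 in edgeR without the block and 2 had with it, and their median log2 fold change was 0.0039. Of the 40 nuclear subunits of complexes II to V, none had an unadjusted P under 0.05 and the median was 0.014, and of 77 mitochondrial ribosomal proteins tested 1 had and the median was -0.0023. With the block 3 of the 40 and 6 of the 77 had, and 1 ribosomal protein gene passed the adjusted limit. Over all genes tested, 3.53% had an unadjusted P under 0.05 without the block and 16.8% with it, and 3.23% passed the adjusted limit with it. The 7 mitochondrially encoded ND subunits, which form the core of the membrane arm, summed to 36356, 40232 and 37225 TPM in DMSO and 40735, 45416 and 40889 TPM in S767. All S767 libraries lay above all DMSO libraries, with means of 37938 ± 2034 and 42346 ± 2659 TPM (SD, n = 3 each).

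Of these 7, *MT-ND4L*, *MT-ND4* and *MT-ND5*, which encode proton-pumping or adjoining membrane subunits, had log2 fold changes of 0.29 ± 0.094, 0.26 ± 0.086 and 0.25 ± 0.11. Each had an unadjusted P under 0.05 and an adjusted p of 1.00 by edgeR without the block, and adjusted p-values of 1.53e-04, 0.00146 and 0.00289 with it. Of all genes tested, 3.53% had such an unadjusted P without the block, and 3.23% passed the adjusted limit with it. In RSEM counts without the block the unadjusted P was 0.0103, 0.00813 and 0.059 by edgeR, so that of *MT-ND5* was above 0.05. Of all genes, 3.70% were under 0.05 there. *MT-ND4L* (10470 to 10766) and *MT-ND4* (10760 to 12137) overlap in the mitochondrial genome, so they are not separate observations. *MT-ND1* was at 0.0072 ± 0.11 and *MT-ND6*, the one encoded on the other strand, at -0.24 ± 0.19. The median over the 7 was 0.066, beside 0.018 over the 36 nuclear subunits, and the difference between these lists was not tested.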

How the data were processed

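Stranded mRNA-seq was measured in 3 DMSO and 3 S767 libraries of OCI-AML5 cells, grouped by the treatment in their labels. The submitters' processing notes name STAR 2.7.1a, RSEM 1.2.28 and GRCh38. The annotation release is not given in the sources used here. The authors deposited whole-number counts of fragments per gene from STAR, for both strands together and for each strand, without normalization. The authors also deposited RSEM expected counts, which need not be whole, and TPM, which correct for length and add up to one fixed total per library. The forward strand held 6.44 to 6.58% of the counts, and reverse-strand counts were used. The 4 summary lines of the count tables name no gene, held 19.7 to 20.7% of fragments and were left out. STAR leaves out fragments that match several places (7.27 to 7.56%) or several genes, and RSEM divides them, which can change a gene's level.

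The listed symbols were mapped to the Ensembl identifiers of the tables. Genes kept by filterByExpr (minimum count 10) were normalized with TMM and tested with edgeR 4.0.16 (quasi-likelihood, R 4.3.3), and P values were adjusted over the 20725 genes kept (Benjamini-Hochberg). Expected counts were rounded and tested in the same way. The intervals take in both counting error and the spread between libraries. Alternatives were limma-voom (limma 3.58.1, the tool the study names), DESeq2 1.42.0, RLE factors, library size alone, other limits on low counts, counts without strand, RSEM counts, log2(TPM + 1), log2(TPM + 0.1), a replicate block, and each library left out. Replicate numbers were taken to pair the libraries, because log2 CPM deviations from each group's mean correlated at 0.78, 0.87 and 0.75 between libraries of one number. This used 6191 genes with a mean log2 CPM above 5. All other correlations were negative, which deviations from a mean of 3 libraries largely force, so these add little. The pairing comes from these values only.

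The members and lists were chosen with earlier results of these data known. Values in every library are given for the iron-sulfur subunits, members with an unadjusted P under 0.05, members past an adjusted p of 0.05 with the block (there were none), and the highest and lowest level. Other members are given by count and range, with the 3 largest changes of each module named. Members named outside this rule were chosen after their values were seen. Intervals are 95% confidence intervals of the fit. Exon overlaps and gene positions come from GENCODE 29 on GRCh38.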

Additional observations from a re-analysis of the deposited data

How the results depend on the processing

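No member passed an adjusted p of 0.05 in 23 of 24 alternatives. The exception was the replicate block without replicate 1, with 8. The median of the 36 ranged from -0.013 to 0.065 and the iron-sulfur difference from -0.050 to 0.025, moves smaller than their spread over pairs (SD 0.076 and 0.050). The cause of the changes below was not tested, except that fewer libraries enter where some are left out.

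The number of members with an unadjusted P under 0.05, 1 in the edgeR fit, was 0 in limma-voom, DESeq2, RLE factors, library size alone, at least 10 counts in every library, counts without strand, and RSEM counts, in which 3.07 to 3.74% of all genes had. It was 3 in log2(TPM + 1) and log2(TPM + 0.1) (5.12% and 5.20% of all genes), and 0 to 2 leaving out 1 library (2.53 to 4.91%), with 2 without S767 replicate 1 (4.91%) and 0 without DMSO replicate 2 or 3 or S767 replicate 2 or 3. With the replicate block it was 4 (16.8%), and 4 with the block for library size alone (16.7%) and for RSEM counts (17.6%), 3 for limma-voom (16.5%) and for DESeq2 (10.2%), and, with the block, 17, 0 and 5 without replicate 1, 2 and 3 (21.1%, 8.94% and 13.4%). The block changed no adjusted call of a member when all libraries entered.

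Of 432 values of 18 named members, 398 kept the direction of the edgeR fit. With RSEM counts, *NDUFA13*, *NDUFB8*, *NDUFC2* and *NDUFV2* turned to 0.072, 0.015, -0.0049 and 0.028, and with the block to 0.071, 0.015, -0.0035 and 0.029. With log2(TPM + 1) they were 0.065, 0.0065, -0.023 and 0.017, and *NDUFV1* was -0.022, and log2(TPM + 0.1) gave the same to 2 digits. Leaving out 1 library, the ranges were -0.34 to 0.16 (*NDUFA13*), -0.31 to 0.22 (*NDUFV2*), -0.017 to 0.078 (*NDUFAB1*), -0.018 to 0.067 (*NDUFS8*) and -0.022 to 0.043 (*NDUFV1*). With the block and without replicate 2, *NDUFA13*, *NDUFS8* and *NDUFV2* were 0.010, -0.023 and 0.044, and without replicate 3, *NDUFAB1*, *NDUFS7*, *NDUFV1* and *NDUFV3* were -0.011, -0.0091, -0.0089 and -0.0061.

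Low gene counts limit the 7 genes counted in small part, whose lowest library count was 145 (*NDUFA7*), against 4386 among the other 29. Their RSEM expected counts were not low, at 4544 or more, against a lowest value of 4060 over the 36.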
